A study of Rattus norvegicus with 9 samples.

Results

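The 9 genes described here encode secreted antagonists of Wnt signalling, namely Sfrp1, Sfrp2, Sfrp4, Sfrp5, Frzb, Wif1, Dkk2, Dkk3 and Notum. They were taken by symbol, with no threshold on their values, and all 9 were found among the 23026 genes of the count and FPKM tables. FPKM are counts scaled by gene length and library size, and they serve here for levels, while counts serve for tests. The data come from mRNA sequencing of bone from female Sprague-Dawley rats, 8 weeks old at purchase, with 3 libraries in each of 3 groups. Sham rats had fat tissue beside the ovary taken out and kept their ovaries. OVX rats lost both ovaries, a state that the labels call PMOP. Gavage started 6 weeks after surgery and went on for 8 weeks. The labels give the vehicle, CMC-Na, as 1%, 2% and 3% for Sham 1, 2 and 3 and as 1% for the OVX libraries. The methods of the study name a single strength for both groups, and Sham was kept as a single group. The third group, OVX-AS-IV-High, was ovariectomized and given astragaloside IV, a triterpenoid saponin of Astragalus root, at 80 mg/kg; it is called AS-IV from here on. The labels number the libraries of a group without naming animals; the methods of the study call them independent biological replicates, and they were treated as such.

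The Sham libraries held 35813432, 34874880 and 35725783 counts. In OVX the totals were 36260132, 36840026 and 36798504, and in AS-IV they were 37298250, 37178255 and 36340063. Markers of bone cells were abundant in all of them. Over the 9 libraries, Bglap, the osteocalcin gene of osteoblasts, had a mean of 1223 FPKM, Ctsk of osteoclasts 599 FPKM and Mepe of osteocytes 60.7 FPKM. The libraries also held RNA of marrow, cartilage, fat and muscle. Mean levels were 8666 FPKM for S100a8 of neutrophils, 206 FPKM for Col2a1 of chondrocytes, 403 FPKM for Fabp4 of adipocytes and 667 FPKM for Acta1 of skeletal muscle.

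Wnt proteins are lipid-modified ligands that bind Frizzled receptors and the coreceptors Lrp5 and Lrp6, and in bone this pathway favours the formation and activity of osteoblasts. Secreted frizzled-related proteins (the Sfrp genes and Frzb) carry a cysteine-rich domain like that of Frizzled and bind Wnt proteins outside the cell, as does Wif1 through its WIF domain. Dkk2 binds the Lrp coreceptors, Dkk3 is the divergent member of the Dickkopf family, and Notum is an enzyme that removes the lipid from Wnt proteins.

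Promoter sequences in the RefSeq table (build GRCr8) matched 4 of the 9 genes by symbol; Sfrp1, Sfrp4, Dkk2, Dkk3 and Notum have no entry there. Each sequence runs 5′ to 3′ on the strand of its gene, from 250 bases before the start site to 50 bases from it, 300 bases in all. All 4 are printed. Wif1 and Frzb varied together over the libraries, and over all 9 libraries the FPKM of Sfrp2 varied least relative to its mean. Capitals mark matches to any of 4 motifs, searched on both strands. These were the RUNX motif (TGTGGT), the TCF/LEF motif (CTTTGA), the core of an estrogen response element (GGTCA) and the TATA box (TATAAA). No matches overlapped in these promoters.
Sfrp2: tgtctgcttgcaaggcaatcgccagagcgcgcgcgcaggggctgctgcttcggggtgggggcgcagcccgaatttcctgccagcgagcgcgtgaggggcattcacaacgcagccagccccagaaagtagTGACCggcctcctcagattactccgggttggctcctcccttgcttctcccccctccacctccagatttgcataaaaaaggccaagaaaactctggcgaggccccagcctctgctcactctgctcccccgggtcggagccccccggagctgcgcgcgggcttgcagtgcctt
Sfrp5: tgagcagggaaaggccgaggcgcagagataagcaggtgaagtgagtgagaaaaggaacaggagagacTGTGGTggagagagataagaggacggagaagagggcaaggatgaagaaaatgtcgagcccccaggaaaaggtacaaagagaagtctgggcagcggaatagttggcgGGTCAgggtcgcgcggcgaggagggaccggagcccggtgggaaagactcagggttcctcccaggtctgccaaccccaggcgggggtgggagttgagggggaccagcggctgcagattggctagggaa
Frzb: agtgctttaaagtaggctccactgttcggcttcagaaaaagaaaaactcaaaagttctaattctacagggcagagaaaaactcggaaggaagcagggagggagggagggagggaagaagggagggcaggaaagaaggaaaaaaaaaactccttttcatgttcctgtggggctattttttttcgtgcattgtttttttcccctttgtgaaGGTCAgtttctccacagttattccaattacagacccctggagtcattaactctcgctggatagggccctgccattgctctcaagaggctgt
Wif1: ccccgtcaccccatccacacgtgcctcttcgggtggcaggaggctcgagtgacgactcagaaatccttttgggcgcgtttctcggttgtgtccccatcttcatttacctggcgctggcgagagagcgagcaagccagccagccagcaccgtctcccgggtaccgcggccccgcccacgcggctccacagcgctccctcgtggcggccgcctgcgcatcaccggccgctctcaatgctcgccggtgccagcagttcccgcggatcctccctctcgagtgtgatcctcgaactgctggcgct
The Sfrp2 promoter lies at chr2:171387286-171387585 on the plus strand, and that of Sfrp5 at chr1:250960463-250960762 on the minus strand. In both, the last 50 bases lie in the annotated gene. The Frzb promoter lies at chr3:85772047-85772346 on the minus strand, with 122 of its bases in the annotated gene, whose span begins 72 bases before this start site. The Wif1 promoter lies at chr7:58433329-58433628 on the plus strand and falls wholly in the annotated gene, whose span begins 253 bases before this start site.

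The 4 promoters differed in base composition. GC content was 67.0% for Wif1, 65.0% for Sfrp2, 59.7% for Sfrp5 and 45.3% for Frzb, where the median over 33469 promoters of the same length was 51.7%. The ratio of observed to expected CpG was 0.977 for Wif1 (above that of 93.4% of promoters) and 0.267 for Frzb (above that of 36.2%), with a median of 0.392 over all promoters. The estrogen response element core was found in Sfrp2, 121 bases before the start site on the opposite strand, in Sfrp5, 77 bases before it, and in Frzb, 41 bases before it. These 5 letters occur in 40.5% of all promoters. The RUNX motif was found in Sfrp5, 183 bases before the start site, and the RUNX letters occur in 17.3% of all promoters. The TCF/LEF letters, present in 16.1% of all promoters, and the TATA letters, present in 14.2%, were not in these 4 windows, and Wif1 had a match to none of the 4 motifs. Such matches describe the letters in the window, and binding was not measured.

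Wif1 had the highest level of the 9 antagonists, with 41.2 ± 10.9 FPKM (SD, n = 9 libraries), above Sfrp2 in all 9 libraries and above 92.3% of all genes in the tables. It made up between 39.7% and 50.6% of the summed FPKM of the 9 genes in a library. Sfrp2 (11.7 ± 2.68 FPKM) and Sfrp4 (10.7 ± 2.55 FPKM) came next, and their means differed by less than the SD of either; Sfrp2 was the higher in 6 of 9 libraries. Frzb (7.78 ± 5.66 FPKM), Dkk3 (7.24 ± 1.78 FPKM), Sfrp1 (7.18 ± 3.43 FPKM) and Sfrp5 (5.72 ± 2.57 FPKM) also lay within their spread of each other, although Sfrp4 was above Frzb in 8 of 9 libraries. Sfrp5 was above Notum in all 9 libraries. Notum (0.716 ± 0.405 FPKM) and Dkk2 (0.248 ± 0.126 FPKM) had the lowest levels, and Notum was above Dkk2 in 6 of 9 libraries.

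The antagonists differed widely in how much they varied between libraries. The CV of the FPKM over the 9 libraries was 22.9% for Sfrp2, 23.9% for Sfrp4, 24.6% for Dkk3 and 26.5% for Wif1. It was 44.9% for Sfrp5, 47.7% for Sfrp1, 50.9% for Dkk2, 56.5% for Notum and 72.7% for Frzb. Within groups, the biological coefficient of variation that edgeR estimated was 0.672 for Notum, 0.484 for Frzb, 0.475 for Sfrp5 and 0.471 for Dkk2, against a common value of 0.256 for all genes tested. For Sfrp1 it was 0.303, while Sfrp2, Sfrp4, Dkk3 and Wif1 lay between 0.213 and 0.239. Although under the common value, these last were above the values of 56.7% (Sfrp4) to 62.4% (Wif1) of genes tested. That of Sfrp1 was above 73.2%, so each of the 9 antagonists varied more than the median gene.

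**Figure D1:**
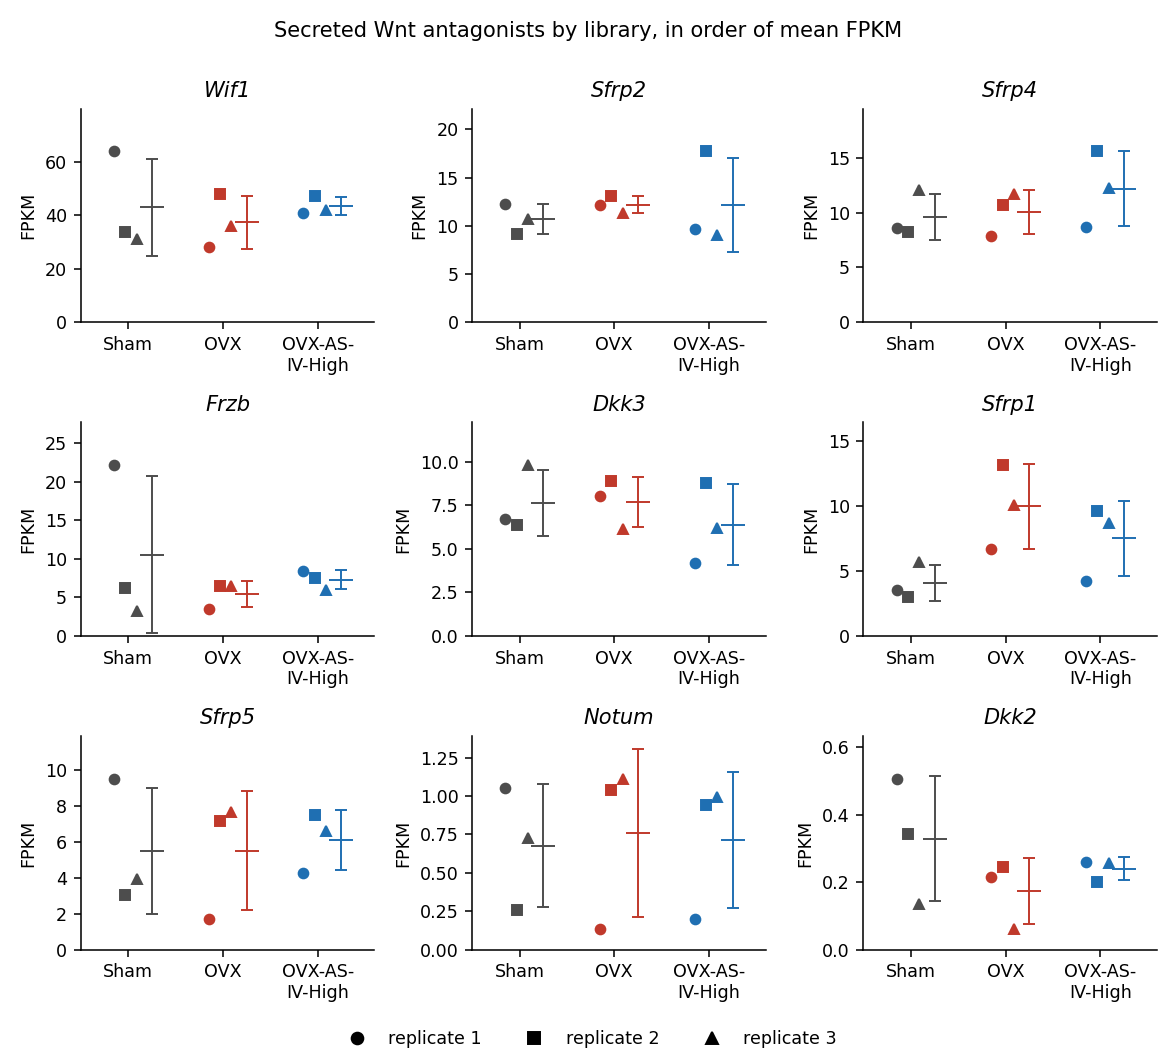
FPKM of the 9 secreted Wnt antagonists in each library, with 1 panel per gene in order of mean level; the symbol gives the replicate number, and the line with bars gives the group mean ± SD (n = 3). Sfrp1 is the panel in which every OVX point lies above every Sham point, and Frzb and Wif1 are highest in Sham 1.

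The first comparison, OVX with Sham, asks how bone without ovarian hormones differs from that of rats with ovaries. Sfrp1 was higher in OVX. Its level was 3.55, 3.01 and 5.66 FPKM in Sham 1, 2 and 3, and 6.65, 13.1 and 10.1 FPKM in OVX 1, 2 and 3. Every OVX library lay above every Sham library, with OVX 2 the highest and Sham 2 the lowest of the 9. The group means were 4.07 ± 1.40 FPKM in Sham and 9.96 ± 3.24 FPKM in OVX (SD, n = 3 each). From the counts, the difference was a log2FC of 1.26 (standard error 0.354), or 2.40-fold, and the quasi-likelihood test of edgeR gave a Benjamini-Hochberg adjusted p of 0.166 over the 16874 genes left after filtering. The unadjusted p was 0.0057, the 580th smallest in edgeR's test, and the two-sided exact permutation test gave p = 0.1, the smallest that 3 libraries against 3 allow. Sfrp1 rose by the thresholds used here, an unadjusted p under 0.05 with an absolute log2FC over 1, and did not pass the adjusted threshold. These are the thresholds in the results of the study, whose methods name a lower fold, used here as an alternative. DESeq2 gave it an adjusted p of 0.0118; over all 7 other ways of processing it lay between 0.0118 and 0.191. With each of the 9 libraries left out in turn, Sfrp1 was past the thresholds in all 9 fits, with a log2FC from 1.03 without OVX 2 to 1.58 without Sham 3. In bulk bone, more cells of a type and more RNA per cell cannot be told apart.

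Of the 9 antagonists, 1 was past the thresholds in the higher direction in OVX vs Sham, where 1.08% of all genes tested were, and 0 were past them in the lower direction, where 2.03% were (3.11% in either direction). Sfrp1 was also the 1 antagonist whose libraries did not overlap between the groups, higher in OVX, as was so for 12.7% of all genes tested, beside 10.6% that lay lower and 23.3% in either direction. For libraries without overlap, 1 gene of 9 is near what the share of 12.7% would give. The count past the thresholds is above its share of 1.08%, but it rests on a single gene. Neither count is read as a result about these genes. An adjusted p under 0.05 was reached by 0 of the 9 in edgeR and by 1 in DESeq2, which gave such a p to 790 genes in all, and an unadjusted p under 0.05 by 1 in either tool; over all genes tested, 16.4% had an unadjusted p under 0.05 in edgeR. The log2FC was positive for 4 and negative for 5 of the 9, with a median of -0.012, beside -0.006 over all genes tested.

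The remaining secreted frizzled-related genes differed by less than the spread between libraries. Sfrp2 had 12.3, 9.20 and 10.7 FPKM in Sham and 12.2, 13.1 and 11.3 FPKM in OVX. Sfrp4 had 8.60, 8.28 and 12.1 FPKM in Sham and 7.84, 10.7 and 11.7 FPKM in OVX. For both genes the groups overlapped, and the log2FC was 0.16 (standard error 0.234) for Sfrp2 and 0.04 (standard error 0.234) for Sfrp4. Sfrp5 had 9.53, 3.06 and 3.94 FPKM in Sham and 1.72, 7.18 and 7.68 FPKM in OVX. Here a single library stood apart in each group, Sham 1 above and OVX 1 below the others. The group means of Sfrp5 were 5.51 ± 3.51 and 5.53 ± 3.31 FPKM (SD, n = 3 each), and its log2FC of -0.01 (standard error 0.556) turned to 0.62 without Sham 1 and to 0.42 without OVX 1.

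Frzb, which is known best from cartilage, had 22.2, 6.24 and 3.20 FPKM in Sham and 3.54, 6.43 and 6.52 FPKM in OVX. Sham 1 was far above every other Sham and OVX library, and the other Sham libraries lay among or below those of OVX. The group means were 10.5 ± 10.2 and 5.50 ± 1.69 FPKM (SD, n = 3 each). The log2FC of Frzb was -0.95 (Benjamini-Hochberg adjusted p = 0.418 by edgeR quasi-likelihood; two-sided exact permutation p = 0.8). Without Sham 1 it turned to 0.17, and without Sham 3 it was -1.38, past the thresholds, so that the sign for Frzb rests on Sham 1. Wif1 had 63.9, 33.8 and 31.0 FPKM in Sham and 28.3, 48.0 and 35.9 FPKM in OVX. Sham 1 was again the highest, and the groups overlapped. The log2FC of Wif1 was -0.22 (standard error 0.266), and 0.16 without Sham 1.

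Of the Dickkopf genes, Dkk2 had few counts, namely 56, 37 and 15 in Sham against 24, 28 and 7 in OVX. The lowest Sham library lay below the higher pair of OVX libraries. The group means were 0.329 ± 0.186 and 0.174 ± 0.0987 FPKM (SD, n = 3 each). Its log2FC was -0.94 (Benjamini-Hochberg adjusted p = 0.422 by edgeR quasi-likelihood; two-sided exact permutation p = 0.3), and -1.31 without Sham 3, which was past the thresholds. Dkk3 had 6.70, 6.37 and 9.81 FPKM in Sham and 8.05, 8.92 and 6.12 FPKM in OVX. The groups overlapped, with the highest library in Sham and the lowest in OVX, and the log2FC was -0.02 (standard error 0.266). Sham libraries held 125, 30 and 86 counts of Notum, and OVX libraries 16, 127 and 136. OVX 1 and Sham 2 were low and the other libraries were high, so that the groups overlapped, and the log2FC was 0.15 with a standard error of 0.802, the largest of the 9.

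**Figure D2:**
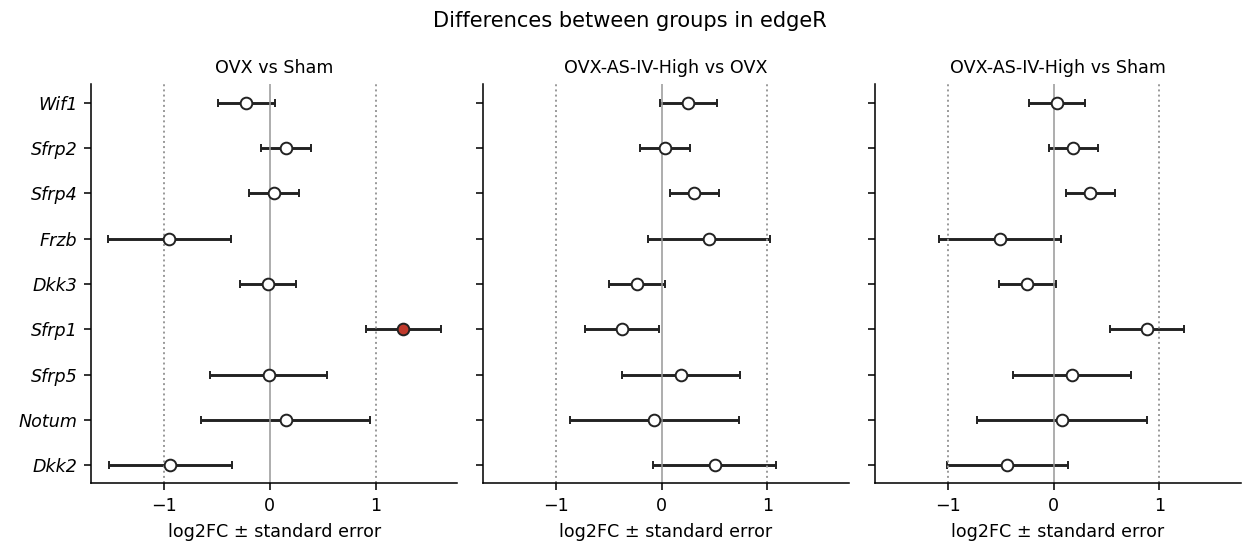
log2FC ± standard error of each antagonist in the 3 comparisons, from edgeR's quasi-likelihood fit on counts; dotted lines mark an absolute log2FC of 1, and a filled point is past the thresholds. Sfrp1 in OVX vs Sham (1.26) is the filled point, and Notum has the widest bars.

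The second comparison, AS-IV with OVX, asks what AS-IV adds to ovariectomy, and it uses the same OVX libraries as the first. Sfrp1 had 4.24, 9.62 and 8.64 FPKM in AS-IV 1, 2 and 3. The first of these lay below every OVX library and the others lay within the OVX range, so that the groups overlapped. The mean of 7.50 ± 2.87 FPKM in AS-IV (SD, n = 3) lay below that of 9.96 ± 3.24 FPKM in OVX, and the log2FC was -0.38 (standard error 0.347, Benjamini-Hochberg adjusted p = 0.942 by edgeR quasi-likelihood; two-sided exact permutation p = 0.4). It lay between -0.60 without OVX 1 and -0.10 without AS-IV 1. In each of the 3 pairs of libraries with the same number, Sfrp1 was lower in AS-IV. The labels and methods do not say that the numbers pair animals, so such pairs are a description only. With the replicate number as a block in a fit of these groups alone, a choice made after seeing the data, the log2FC was -0.40 (standard error 0.109) with an unadjusted p of 0.0106 in edgeR, below the fold threshold, and the adjusted p was 0.608; over the other ways of processing, the adjusted p ran from 0.733 to 0.984.

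Of the 9 antagonists, 0 were past the thresholds in AS-IV vs OVX in edgeR and 0 in DESeq2, where edgeR called 0.830% of all genes tested (0.456% higher and 0.373% lower). Without a block, an unadjusted p under 0.05 was reached by 0 of the 9 in either tool, against 6.45% of all genes tested in edgeR. The smallest p was 0.219, for Sfrp4, in edgeR's quasi-likelihood test. The block in a fit of these groups alone took the unadjusted p of Sfrp1 under 0.05 in edgeR, as given above. The groups overlapped for all 9 genes, while 12.7% of all genes tested did not overlap (6.38% higher and 6.36% lower). At such shares, a count of 0 among 9 genes is not a result about these genes. The log2FC was positive for 6 and negative for 3 of the 9, with a median of 0.18, where all genes tested had a median of -0.02.

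Among the single genes, Sfrp4 had 8.74, 15.6 and 12.3 FPKM in AS-IV and a log2FC of 0.31 (standard error 0.234). It was higher in AS-IV in each of the 3 same-numbered pairs. With the replicate number as a block in a fit of these groups alone, its unadjusted p was 0.0610 in edgeR. Sfrp2 had 9.62, 17.7 and 9.08 FPKM in AS-IV. The second of these was the highest Sfrp2 level of the 9 libraries and the others lay below all OVX libraries, and the log2FC was 0.03 (standard error 0.234). Without AS-IV 2 it turned to -0.34, with an unadjusted p of 0.0362 and an adjusted p of 0.993 in edgeR, so that the sign for Sfrp2 rests on AS-IV 2. Frzb had 8.44, 7.51 and 5.96 FPKM, a mean of 7.30 ± 1.26 FPKM against 5.50 ± 1.69 in OVX (SD, n = 3 each), and a log2FC of 0.45 (standard error 0.578). Wif1 had 41.0, 47.2 and 42.0 FPKM, the narrowest spread of Wif1 in any group, and a log2FC of 0.25 (standard error 0.266). In FPKM, all 3 treated libraries of Wif1 and 1 of Frzb lay within the OVX range. In CPM, Wif1 in AS-IV 2 (105) lay above the highest OVX library (103). By that measure Wif1 was higher in AS-IV in each of the 3 same-numbered pairs. Dkk2 had 30, 23 and 29 counts in AS-IV and a log2FC of 0.50 (standard error 0.583). Dkk3 had 4.17, 8.80 and 6.22 FPKM and a log2FC of -0.23 (standard error 0.266). For Sfrp5, with 4.27, 7.53 and 6.60 FPKM, and for Notum, with 25, 116 and 120 counts, replicate 1 was the lowest of the treated libraries, as it was in OVX, and the log2FC was 0.18 for Sfrp5 and -0.07 for Notum.

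AS-IV and Sham were compared with the libraries already used above, so that this comparison shares all of them with the others. Sfrp1 had a mean of 7.50 ± 2.87 FPKM in AS-IV and 4.07 ± 1.40 FPKM in Sham (SD, n = 3 each). AS-IV 2 and 3 lay above every Sham library, and AS-IV 1 lay within the Sham range. The log2FC was 0.89 (standard error 0.352), or 1.85-fold, with an unadjusted p of 0.0320 and a Benjamini-Hochberg adjusted p of 0.244 by edgeR quasi-likelihood, and the two-sided exact permutation p was 0.2. This was below the fold threshold. Without Sham 3 the log2FC was 1.20 and without AS-IV 1 it was 1.16, both past the thresholds. It was 0.67 without AS-IV 2. The unadjusted p of edgeR was above 0.05 without Sham 1, Sham 2, AS-IV 2 or AS-IV 3, and that of limma was 0.0579 on log2(FPKM + 1) and 0.0508 on log2(FPKM + 0.1). Of the 9 antagonists, 0 were past the thresholds in edgeR and 0 in DESeq2, where edgeR called 3.15% of all genes tested (1.11% higher and 2.03% lower), and 1, Sfrp1, had an unadjusted p under 0.05 in either tool, as did 17.6% of all genes tested in edgeR. The groups overlapped for all 9 genes, against 19.9% of genes without overlap (9.61% higher and 10.3% lower). The log2FC was positive for 6 and negative for 3, and its median was 0.08, against -0.01 for all genes tested. The other 8 antagonists had log2FC between -0.50 for Frzb and 0.35 for Sfrp4, and Frzb turned to 0.63 without Sham 1.

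Side by side, the log2FC of Sfrp1 was 1.26 in OVX vs Sham, -0.38 in AS-IV vs OVX and 0.89 in AS-IV vs Sham, from comparisons that share libraries. As a share of the summed FPKM of the 9 antagonists, Sfrp1 made up 2.77%, 4.27% and 7.32% in Sham 1, 2 and 3. Its share was 9.70%, 12.1% and 11.2% in OVX, and 5.24%, 8.35% and 9.39% in AS-IV. In these shares every OVX library lay above every Sham library, and AS-IV 1 lay within the Sham range. The share is computed from the same Sfrp1 values and also moves with the other antagonists, so it is not separate evidence. The summed FPKM itself ran from 68.6 in OVX 1 to 128 in Sham 1, and its group ranges overlapped.

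Because the libraries held several tissues, the level of Sfrp1 was set beside 14 lists of cell type markers. Pearson's r was taken between log2 CPM of Sfrp1 and log2 of the summed FPKM of each list over the 9 libraries, with exact permutation p-values adjusted over the 14 relations; 6 lists had an adjusted p under 0.05. The strongest relation was with adipocyte markers (r = 0.979, exact permutation p = 1.93e-05, adjusted p = 0.00027; Spearman's rho = 0.983, exact permutation p = 4.96e-05, adjusted p = 0.000694). It was 0.947 within groups and 0.991 without Sham 2 and OVX 2, the libraries farthest from the median of Sfrp1. Osteoblast markers followed (r = 0.893, exact permutation p = 0.00214, adjusted p = 0.0150; rho = 0.883, exact permutation p = 0.00308, adjusted p = 0.0215), with r = 0.931 within groups and 0.901 without these libraries. For osteoclast markers r was 0.837 (exact permutation p = 0.00717, adjusted p = 0.0201; rho = 0.800, exact permutation p = 0.0138, adjusted p = 0.0387), with 0.833 within groups and 0.869 without these libraries. For B lineage markers r was 0.868 (exact permutation p = 0.00452, adjusted p = 0.0161; rho = 0.833, exact permutation p = 0.00827, adjusted p = 0.0289), with 0.700 within groups and 0.763 without these libraries.

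Muscle markers ran the other way from Sfrp1. For smooth muscle and pericyte markers r was -0.843 (exact permutation p = 0.00459, adjusted p = 0.0161; rho = -0.85, exact permutation p = 0.00607, adjusted p = 0.0283), with -0.717 within groups and -0.873 without Sham 2 and OVX 2. For skeletal muscle markers r was -0.768 (exact permutation p = 0.0171, adjusted p = 0.0398), with -0.785 within groups and -0.777 without these libraries, and rho was -0.65 (exact permutation p = 0.0666, adjusted p = 0.133). Another 7 lists had r between -0.433 for endothelium and 0.705 for marrow stroma, with exact permutation p-values adjusted for r from 0.0629 to 0.994. For marrow stroma rho was 0.767 (exact permutation p = 0.0214, adjusted p = 0.0499), but its r turned to -0.312 with the mean of log2(FPKM + 1) over the list in place of the sum, so that its direction depended on the scaling. With that mean, r for tendon and fibrous tissue was -0.588, against -0.0993 with the sum. The labels give no batch within which to repeat these relations. The permutations ran over all 9 libraries, across the groups, and did not use the replicate number. A difference between groups that Sfrp1 shares with a list thus enters these p-values. For the r within groups no p-value was computed.

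The adipocyte list held 7 genes, all above 3 counts in every library, with Fabp4 the most abundant. Its summed level was 365, 377 and 453 FPKM in Sham, 533, 707 and 706 FPKM in OVX, and 402, 655 and 647 FPKM in AS-IV. As for Sfrp1, every OVX library lay above every Sham library, and AS-IV 1 lay within the Sham range. With the mean of log2(FPKM + 1) in place of the sum, AS-IV 1 (4.08) lay above Sham (3.69, 3.73 and 3.89). In OVX vs Sham, 4 of the 7 genes rose past the thresholds (Adipoq, Plin1, Cidec and Lep), with a median log2FC of 1.12 over the list, and the number was 3 without Sham 1, 2 without Sham 2 and 2 without OVX 2. In AS-IV vs OVX, 0 of the 7 were past the thresholds in edgeR and 1, lower, in DESeq2. The edgeR median was -0.11, with 1 gene lower without OVX 1 and 1 without OVX 3. In AS-IV vs Sham, 4 genes were higher past the thresholds in edgeR, with a median of 1.03. That number was 3 to 4 with a library left out and 2 with limma on log2(FPKM + 1). The Sfrp1 gene thus differed between libraries along with the summed fat markers, and their part in the result was not tested.

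The osteoblast list held 9 genes, all above 3 counts in every library, with Bglap the most abundant. Its summed level was 2167, 2802 and 4787 FPKM in Sham, 3972, 6669.8 and 6604 FPKM in OVX, and 2124, 5706 and 4084 FPKM in AS-IV. Sham 3 lay above OVX 1, so that these groups overlapped. In OVX vs Sham, 1 of the 9 genes, Bglap, rose past the thresholds and the median log2FC was 0.38. The number was 0 without Sham 1 and 3 without Sham 3. The osteoclast list (7 genes, all above 3 counts in every library, Ctsk the most abundant) summed to 477, 739 and 1199.7 FPKM in Sham, 762, 1382 and 1480.1 FPKM in OVX, and 675, 1103 and 1433 FPKM in AS-IV. In OVX vs Sham, 0 of its genes were past the thresholds in edgeR, or 2 without Sham 3, with a median of 0.36. The B lineage list (5 genes analysed here, all above 3 counts in every library, Cd79a the most abundant) summed to 364, 347 and 466 FPKM in Sham, 636, 671 and 633 FPKM in OVX, and 411, 465 and 612 FPKM in AS-IV. The OVX libraries lay above every Sham library, 0 of the 5 genes were past the thresholds, and the median log2FC was 0.62. The adipocyte, osteoblast, osteoclast and B lineage sums were, like Sfrp1, lower in AS-IV than in OVX in each of the 3 same-numbered pairs. With the mean of log2(FPKM + 1) in place of the sum, this held for osteoblasts and the B lineage, whereas the adipocyte mean was higher in AS-IV 3 than in OVX 3 and the osteoclast mean higher in AS-IV 1 than in OVX 1. The part of these cells in the Sfrp1 result was not tested.

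Skeletal muscle markers (9 genes analysed here, all above 3 counts in every library, Acta1 the most abundant) summed to 5208, 3859 and 842 FPKM in Sham, 1926, 1024 and 867 FPKM in OVX, and 2841, 1133 and 312 FPKM in AS-IV. Sham 1 and 2 held the most, and the groups overlapped through Sham 3. In OVX vs Sham, 0 of the 9 genes were past the thresholds in edgeR and 1, lower, in DESeq2, with a median log2FC of -1.49, and 3 were lower without Sham 3, 3 without AS-IV 3, 2 without AS-IV 1 and 1 without OVX 1. The 6 smooth muscle and pericyte markers, all above 3 counts in every library and led by Des, summed to 403, 341 and 130.2 FPKM in Sham, 162, 117 and 67.3 FPKM in OVX, and 185, 128 and 66.1 FPKM in AS-IV. Of these 6 genes, 4 fell past the thresholds in OVX vs Sham (Myh11, Acta2, Tagln and Cnn1), with a median of -1.45. The part of muscle tissue in the Sfrp1 result was not tested either.

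**Figure D3:**
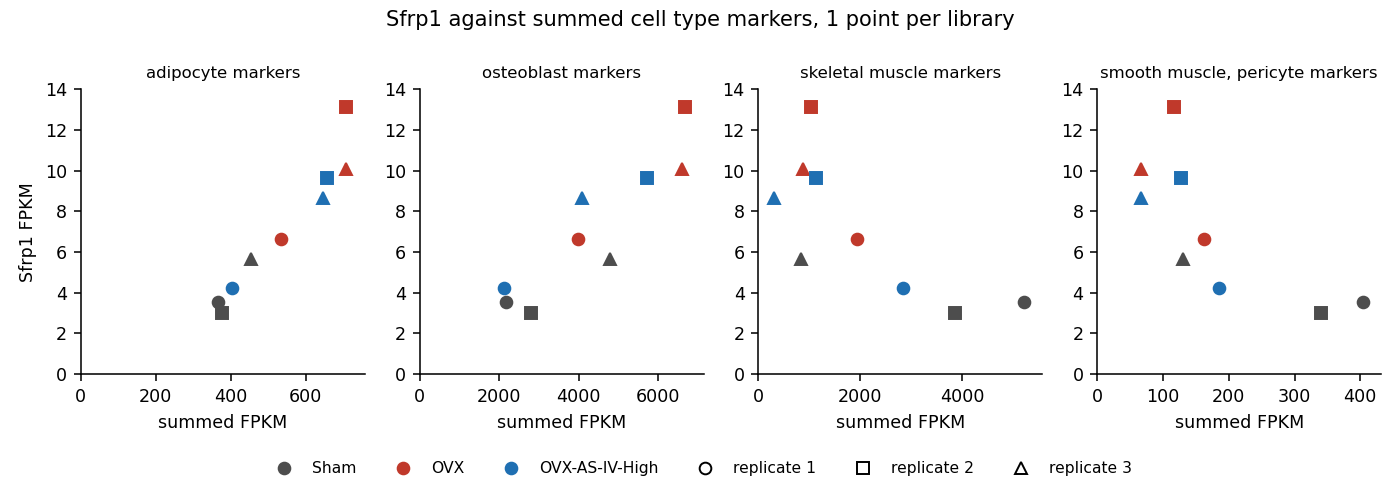
FPKM of Sfrp1 against the summed FPKM of adipocyte, osteoblast, skeletal muscle, and smooth muscle and pericyte markers, with 1 point per library, colored by group and shaped by replicate number. Sfrp1 and the adipocyte sum increase together across all 3 groups (r = 0.979 on log2 scales), and OVX-AS-IV-High 1 lies among the Sham libraries.

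Among the other marker lists, r with Sfrp1 was 0.141 for chondrocytes, or 0.778 within groups. For marrow stroma the r within groups was 0.835 with the summed FPKM and 0.206 with the mean of log2(FPKM + 1). In OVX vs Sham, the median log2FC was 0.02 for osteocytes, with Fgf23 lower past the thresholds except without Sham 3. It was -0.65 for chondrocytes, with 0 of 10 genes past the thresholds, or 4 without OVX 3 and 1 without Sham 3 or AS-IV 3; these are edgeR counts, and DESeq2 called 1 gene lower. It was -0.22 for tendon and fibrous tissue, with 0 of 10 genes, or 3 without OVX 1 and 1 without Sham 3. The median was -0.15 for marrow stroma, with 0 of 7 genes, or 1 without Sham 3 or OVX 1. It was 0.14 for neutrophils, with 0 of 6 genes tested past the thresholds, or 1 without AS-IV 1. The median was -0.16 for endothelium and -0.09 for erythroid cells, with 0 of 5 genes past the thresholds in either. In AS-IV vs OVX, 0 genes of the 13 marker lists reported here were past the thresholds in edgeR and 1, of the adipocyte list, in DESeq2. Without OVX 3, 1 chondrocyte gene was higher in edgeR, and without OVX 1, 1 gene of tendon and fibrous tissue was. In AS-IV vs Sham, edgeR called 1 osteocyte gene higher, 1 chondrocyte gene lower and 2 smooth muscle and pericyte genes lower. With a library left out, these numbers were 0 to 1, 0 to 1 and 1 to 4. Lists with 0 calls there moved as well. At most, 5 skeletal muscle genes were lower (without AS-IV 1), and 3 osteoblast genes were higher and 2 of tendon and fibrous tissue lower (without Sham 3). DESeq2 called 1 osteocyte gene lower and 3 smooth muscle and pericyte genes lower.

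Among themselves, the antagonists showed 36 pairwise relations over the 9 libraries, of which 24 had a positive and 12 a negative Pearson's r of log2 CPM, with a median r of 0.313. An adjusted p under 0.05 for r, over the 36 relations, was reached by 2 pairs. Frzb and Wif1 varied together (r = 0.894, exact permutation p = 0.00153, adjusted p = 0.0372; Spearman's rho = 0.767, exact permutation p = 0.0214, adjusted p = 0.257). Their r was 0.894 within groups and 0.764 without Sham 1 and Sham 3, the libraries farthest from the median of Frzb. Sfrp5 and Notum formed the other pair (r = 0.891, exact permutation p = 0.00206, adjusted p = 0.0372; rho = 0.883, exact permutation p = 0.00308, adjusted p = 0.111). Their r was 0.910 within groups and 0.685 without Sham 2 and OVX 1. Sfrp5 also varied with Wif1 (r = 0.817, exact permutation p = 0.00704, adjusted p = 0.0845; rho = 0.800, exact permutation p = 0.0138, adjusted p = 0.249), with r = 0.813 within groups and 0.711 without the same libraries. Sham 1 was high and OVX 1 low in Frzb, Wif1, Sfrp5 and Notum. The promoters of Frzb, Wif1 and Sfrp5, printed above, ranged from 45.3% to 67.0% GC, and none of the 4 motifs was found in all 3. Sfrp1 was in neither pair, and its highest r with another antagonist was 0.624, with Sfrp4 (exact permutation p = 0.0743, adjusted p = 0.446; rho = 0.517, exact permutation p = 0.162, adjusted p = 0.591), with r = 0.915 within groups and 0.695 without Sham 2 and OVX 2.

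Marker lists were set beside these genes too. Of 56 relations of Frzb, Wif1, Sfrp5 and Notum with the 14 lists, 0 had an adjusted p under 0.05 for r, and those below are descriptions. Erythroid markers ran against Frzb (r = -0.835, exact permutation p = 0.00424, adjusted p = 0.119; rho = -0.80, exact permutation p = 0.0138, adjusted p = 0.357), with r = -0.951 within groups and -0.635 without Sham 1 and Sham 3. They also ran against Wif1 (r = -0.785, exact permutation p = 0.0120, adjusted p = 0.225; rho = -0.75, exact permutation p = 0.0255, adjusted p = 0.357), with r = -0.882 within groups and -0.702 without Sham 1 and OVX 1. This list held 5 genes, all above 3 counts in every library and led by Ahsp. It summed to 1599.8, 2174 and 2703 FPKM in Sham, to 2285, 1741 and 1922 FPKM in OVX, and to 1797, 1944 and 2319 FPKM in AS-IV. Chondrocyte markers ran with Notum (r = 0.843, exact permutation p = 0.00359, adjusted p = 0.119; rho = 0.683, exact permutation p = 0.0503, adjusted p = 0.532), with r = 0.902 within groups and 0.534 without OVX 1 and AS-IV 1. They also ran with Sfrp5 (r = 0.732, exact permutation p = 0.0245, adjusted p = 0.274; rho = 0.583, exact permutation p = 0.108, adjusted p = 0.605), with r = 0.796 within groups but 0.0672 without Sham 2 and OVX 1. Of these 10 genes, led by Col2a1, 9 were above 3 counts in every library. The list summed to 443, 199 and 685 FPKM in Sham, to 75.3, 264 and 473 FPKM in OVX, and to 188, 398 and 323 FPKM in AS-IV. Osteocyte markers also ran with Notum (r = 0.740, exact permutation p = 0.0236, adjusted p = 0.274; rho = 0.817, exact permutation p = 0.0108, adjusted p = 0.357), with r = 0.789 within groups but 0.116 without OVX 1 and AS-IV 1. With Sfrp5 their r was 0.657 (exact permutation p = 0.0589, adjusted p = 0.471; rho = 0.650, exact permutation p = 0.0666, adjusted p = 0.532), with 0.789 within groups and 0.718 without Sham 2 and OVX 1. This list held 6 genes, all above 3 counts in every library and led by Mepe. It summed to 168, 159 and 130.3 FPKM in Sham, to 95.2, 141 and 208 FPKM in OVX, and to 95.9, 139 and 146 FPKM in AS-IV. For marrow stroma with Notum, r was 0.701 (exact permutation p = 0.0389, adjusted p = 0.363), but 0.143 with the mean of log2(FPKM + 1) in place of the sum. Neutrophil markers ran with Frzb by rank (rho = 0.75, exact permutation p = 0.0255, adjusted p = 0.357). Their r was 0.595 (exact permutation p = 0.0895, adjusted p = 0.609). For these lists, their part in the result was not tested.

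**Figure D4:**
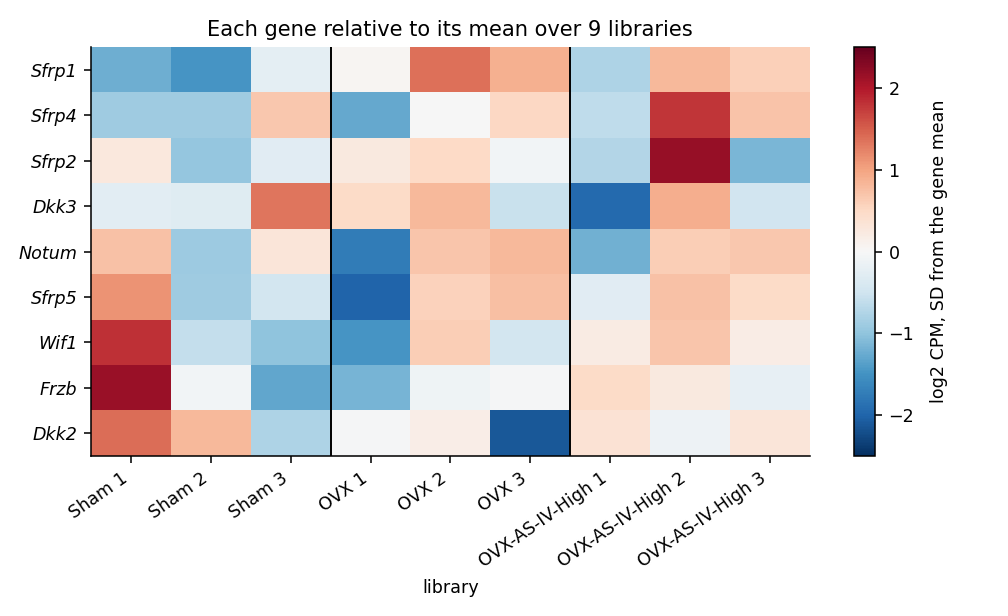
Each antagonist's log2 CPM in the 9 libraries, as SD from the mean of that gene, with black lines between the groups. Notum, Sfrp5, Wif1 and Frzb are all high in Sham 1 and low in OVX 1, whereas Sfrp1 is lowest in Sham 1 and 2 and highest in OVX 2.

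Likeness to other genes was described by Pearson's r of log2 CPM over the 9 libraries, among 14471 genes with a mean of at least 1 CPM and with the antagonists left out; it is a description, with libraries of 3 groups in common. The genes most like Sfrp1 were Cdo1 (r = 0.994), which encodes cysteine dioxygenase, Gja1 (r = 0.980), which encodes a gap junction protein of osteoblasts and osteocytes among other cells, and Psmb10 (r = 0.980), a subunit of the immunoproteasome. Cdo1 had 32.3, 29.5 and 48.0 CPM in Sham, 54.2, 92.9 and 76.4 CPM in OVX, and 41.3, 77.5 and 77.2 CPM in AS-IV, with the same order of groups as Sfrp1 and no overlap between OVX and Sham. Since Cdo1 was picked by its r with Sfrp1 over these same libraries, its values are not separate evidence on Sfrp1. For Wif1 they were Rxra (r = 0.948), which encodes a retinoid X receptor, Begain (r = 0.928) and Prkar1b (r = 0.920). For Frzb they were Pigp (r = 0.967), Il12a (r = 0.964) and Baiap2l2 (r = 0.930).

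For Notum the genes most alike were Scin (r = 0.989), which encodes an actin-severing protein, PCOLCE2 (r = 0.957), whose product enhances procollagen processing, and Cnmd (r = 0.953), the chondromodulin gene of cartilage. By rank the likeness to Notum was weaker, with Spearman's rho of 0.933 for Scin, 0.717 for PCOLCE2 and 0.6 for Cnmd. For Sfrp5 they were Ncmap (r = 0.966), Zfp385c (r = 0.955) and Foxd1 (r = 0.952). For Dkk3 they were Creb3l2 (r = 0.961), Tspan31 (r = 0.948) and Fstl1 (r = 0.911), and for Dkk2 they were S100a16 (r = 0.973), Ret (r = 0.960) and LOC100361259 (r = 0.948). Sfrp4 was most like Ncoa6 (r = 0.952), LOC120093860 (r = 0.951) and Tspan6 (r = 0.941). For Sfrp2, whose FPKM varied least relative to its mean, the values were 0.925 for Lrfn1, 0.924 for LOC102547167 and 0.890 for LOC103690178. Each was lower than the value of the same rank for every other antagonist.

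The rest of the Wnt pathway was described by 6 lists. Other antagonists and negative regulators of the pathway, such as sclerostin (Sost) of osteocytes, had 9 genes tested, of which 0 were past the thresholds in any comparison in edgeR or DESeq2. Their median log2FC was 0.19 in OVX vs Sham, -0.14 in AS-IV vs OVX and -0.09 in AS-IV vs Sham, beside -0.01, -0.02 and -0.01 for all genes tested. Per length, Igfbp4, which encodes a binding protein of insulin-like growth factors, was at 60.5, 91.0 and 77.1 FPKM in Sham, OVX and AS-IV. Sost was at 28.0, 30.4 and 31.3 FPKM and Apcdd1 at 6.13, 7.15 and 7.09 FPKM (means, n = 3 each), so that the mean level of Wif1 lay above that of Sost in each group. The 16 receptors and coreceptors tested likewise had 0 genes past the thresholds in edgeR, or 1 lower in OVX vs Sham without Sham 3, with medians of -0.16, 0.11 and -0.05. The highest were Ryk, an atypical receptor, at 24.3, 22.9 and 25.6 FPKM, Lrp4 at 14.9, 14.9 and 16.7 FPKM, and Lrp5 at 8.62, 8.29 and 7.62 FPKM. Genes of Wnt secretion and glypicans (7 tested, 0 past the thresholds) had medians of 0.23, -0.20 and 0.03, with Gpc1 at 30.7, 36.7 and 28.7 FPKM, Wls, which carries Wnt proteins to the cell surface, at 12.0, 11.8 and 13.3 FPKM, and Gpc4 at 4.04, 4.83 and 4.10 FPKM. Of the 14 target genes tested, 0 were past the thresholds, or 1 higher in OVX vs Sham without Sham 1 and 1 lower in AS-IV vs OVX without AS-IV 2, with medians of 0.22, -0.22 and 0.00; Myc was at 25.8, 23.8 and 20.3 FPKM, Ccn5 at 7.39, 12.0 and 8.26 FPKM and Nkd2 at 10.3, 9.28 and 7.64 FPKM.

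Calls were made among the ligands and the R-spondins, which strengthen Wnt signals. Of 11 ligands tested, 2 (Wnt1 and Wnt10a) fell in OVX against Sham and rose in AS-IV against OVX, and medians were -0.25 and -0.02. Another ligand was higher in OVX vs Sham without Sham 3, and 1 was lower in AS-IV vs Sham without Sham 1 or AS-IV 1. The study chose these genes on these libraries, so they are not independent evidence, and the OVX libraries are shared. Wnt1 had only 2 or 3 counts in each OVX library, so no fold is given. The AS-IV libraries held 17, 3 and 20 counts of Wnt1, so that AS-IV 2 was at the limit of detection as well. It was not past the thresholds in OVX vs Sham without Sham 1, nor in AS-IV vs OVX without OVX 3 or without AS-IV 3. The counts of Wnt10a were 12, 14 and 50 in Sham, with 2, 10 and 5 in OVX and 18, 24 and 42 in AS-IV, so that OVX 1 was at the limit of detection and the folds are rough. Wnt10a had a log2FC of -2.21 in OVX vs Sham, which was -1.26 without Sham 3 and -1.82 without OVX 1, neither of them past the thresholds, and 2.31 in AS-IV vs OVX.

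In AS-IV vs Sham, the median of the 11 ligands was -0.13, and 1 ligand, Wnt2, rose. The Sham libraries held 43, 59 and 143 counts of Wnt2, those of OVX 156, 122 and 107, and those of AS-IV 149, 233 and 267. In CPM, every AS-IV library lay above every Sham library, AS-IV 1 only just. Its log2FC was 1.35 (standard error 0.436, Benjamini-Hochberg adjusted p = 0.172 by edgeR quasi-likelihood) and lay between 1.04 and 2.02 with each library left out, past the thresholds in all 9 fits.

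Of the 7 R-spondins and their receptors, Rspo3 was lower in OVX than in Sham, with 72, 95 and 80 counts in Sham against 34, 56 and 36. The AS-IV libraries held 86, 60 and 92 counts. Every OVX library lay below every library of either other group. The log2FC was -1.05 (standard error 0.308, Benjamini-Hochberg adjusted p = 0.174 by edgeR quasi-likelihood). It was not past the fold threshold without Sham 2 (-0.90), OVX 1 (-0.93) or OVX 3 (-0.96), and without OVX 3 another gene of the list was lower past the thresholds. In AS-IV vs OVX the log2FC of Rspo3 was 0.95, below the fold threshold, and 1 gene of this list was higher past the thresholds without OVX 2, OVX 3, AS-IV 1 or AS-IV 2. Without Sham 1, 1 gene of the list was higher past the thresholds in OVX vs Sham. Rspo2 was higher in AS-IV than in Sham, with 21, 80 and 58 counts against 15, 14 and 25, and a log2FC of 1.50 (standard error 0.542, Benjamini-Hochberg adjusted p = 0.210 by edgeR quasi-likelihood). It was not past the thresholds without Sham 1 (1.38), Sham 2 (1.38), AS-IV 2 (1.09) or AS-IV 3 (1.43). The medians of this list were -0.12, 0.08 and -0.10. These calls of ligands and R-spondins were also made by DESeq2 on the same counts. With limma on log2(FPKM + 0.1), Wnt2 (1.19) and Wnt10a were past the thresholds, and Wnt1, Rspo3 (-0.96) and Rspo2 (0.59) were not. With limma on log2(FPKM + 1), 0 genes of the 6 lists were past the thresholds; at such low levels this pseudocount shrinks a fold, to 0.45 for Wnt2 and -0.56 for Rspo3. Over the other ways of processing, the adjusted p ran from 0.0286 (DESeq2) to 0.285 for Wnt2, from 0.0375 (DESeq2) to 0.235 for Rspo3 and from 0.0952 (DESeq2) to 0.333 for Rspo2. An adjusted p under 0.05 was reached by 0 genes of the 6 lists in any comparison in edgeR.

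**Figure D5:**
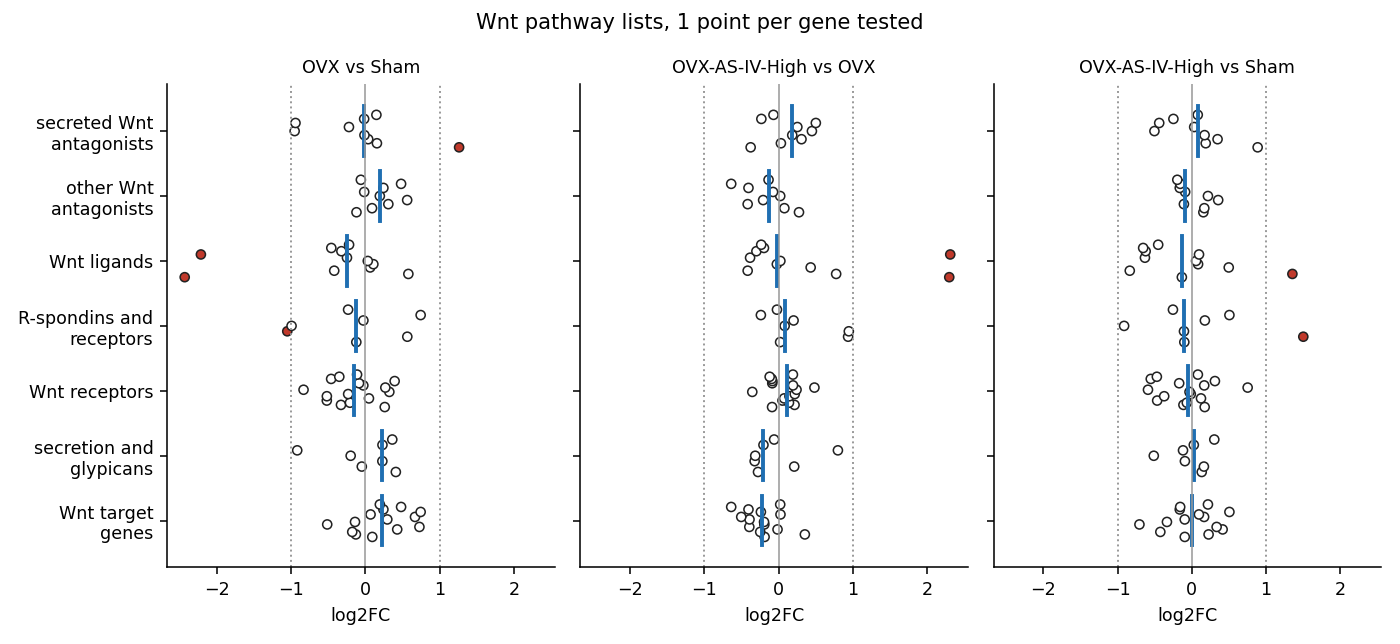
log2FC of each tested gene of the 9 secreted Wnt antagonists and of 6 other Wnt pathway lists in the 3 comparisons; the blue bar is the list median, dotted lines mark an absolute log2FC of 1, and filled points are past the thresholds. The list medians lie between -0.25 and 0.23, and the filled points are Sfrp1, Wnt1, Wnt10a, Wnt2, Rspo3 and Rspo2.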

How the data were processed

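Bone mRNA of 9 libraries in 3 groups was analysed from the gene tables of the authors, who deposited unnormalized counts in whole numbers and, in a second table, FPKM. The authors filtered the reads, aligned them with Tophat and Bowtie2 and estimated abundance with eXpress; how the estimates became whole-number counts is not given in the sources used here. The submitters' processing notes name the genome build mRatBN7.2. The promoter table has another build, GRCr8, and no coordinate of the files was used.

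Tests on counts used edgeR 4.0.16 under R 4.3.3 and its quasi-likelihood fit (TMM, filter on low counts with a minimum of 10, all 9 libraries in a single fit), with Benjamini-Hochberg adjustment over all 16874 genes tested. The filter kept all 9 antagonists. A gene was past the thresholds when its absolute log2FC was over 1 and its unadjusted p under 0.05. A gene at 3 counts or fewer was taken to be at the limit of detection, which covers counting error only. Exact permutation tests were two-sided and used CPM for groups and log2 CPM for correlations. The alternatives were DESeq2 1.42.0, RLE size factors, no filter, only the groups compared, the replicate number as a block, limma 3.58.1 with trend on log2(FPKM + 1) and log2(FPKM + 0.1), an absolute log2FC over 0.58, and each library left out. The fits were tested on simulated data. Python 3.11.15, numpy 2.4.6, pandas 2.3.3 and matplotlib 3.10.9 served for the rest.

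The named genes are the 9 antagonists, the 3 genes most like each (Pearson's r of log2 CPM with a prior count of 2), and, in each Wnt pathway list, every gene past the thresholds and otherwise the 3 with the highest mean FPKM. Named marker genes are those past the thresholds or most abundant in their list. The members and lists were chosen with earlier results of these data known. Mylpf, Vpreb1, Dkkl1, Wnt3a, Wnt7a and Wnt8b were not analysed here, and the result of 1 of the 14 marker lists is not reported here.

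Whether numbers pair libraries was checked by removing group means from log2 CPM. Same-numbered libraries of OVX and AS-IV then correlated with 0.310, 0.158 and 0.130, and 1 differently numbered pair reached 0.178. Neither the labels nor the methods of the study pair animals, so these values do not establish a pairing. The number entered the tests as an alternative only. For Sham and OVX the values were 0.200, -0.161 and 0.253, and for Sham and AS-IV 0.314, -0.158 and 0.435, which did not establish a pairing of Sham either. The count data of 0 library pairs were identical (r of log2 CPM from 0.949 to 0.983).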

Additional observations from a re-analysis of the deposited data

How the results depend on the processing

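The log2FC of Sfrp1 in OVX vs Sham stayed past the thresholds under the 7 other ways of processing (1.10 to 1.27) and with each library left out (1.03 to 1.58). In OVX vs Sham, 1 antagonist was past the thresholds; with a library left out there were 1 to 3, the 3 being Sfrp1, Frzb and Dkk2 without Sham 3. By adjusted p there was 1 in DESeq2, against 0 in edgeR. In AS-IV vs Sham, 1 antagonist, Sfrp1, passed with an absolute log2FC over 0.58, and 0 to 1 with a library left out. With no library left out and no block, the signs that turned belong to differences smaller than their standard errors: Dkk3 in OVX vs Sham was 0.020 with limma on log2(FPKM + 1) and 0.023 on log2(FPKM + 0.1), Notum in OVX vs Sham was -0.028 with limma on log2(FPKM + 0.1), Notum in AS-IV vs OVX was 0.032 there, and Sfrp2 in AS-IV vs OVX was -0.062 with limma on log2(FPKM + 1) and -0.071 on log2(FPKM + 0.1). The cause was not tested.

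With the replicate number as a block, the Notum log2FC was -0.29 in OVX vs Sham and -0.32 in AS-IV vs Sham, Sfrp2 in AS-IV vs OVX was -0.0041, and genes with an adjusted p under 0.05 numbered 21 in OVX vs Sham and 58 in AS-IV vs Sham. The block in a fit of OVX and AS-IV alone, chosen after seeing the data, gave -0.029 for Sfrp2 and 0.084 for Notum. The block changed no other call of an antagonist.

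With each library left out in OVX vs Sham, the log2FC ran from -1.38 to 0.17 for Frzb, -0.43 to 0.16 for Wif1, -0.34 to 0.62 for Sfrp5, -0.095 to 0.23 for Sfrp4, -0.12 to 0.21 for Dkk3 and -0.25 to 0.65 for Notum. In AS-IV vs OVX it ran from -0.24 to 0.51 for Sfrp5, -0.34 to 0.21 for Sfrp2 and -0.57 to 0.37 for Notum. In AS-IV vs Sham it ran from -0.93 to 0.63 for Frzb, -0.15 to 0.42 for Wif1, -0.10 to 0.81 for Sfrp5, -0.19 to 0.37 for Sfrp2 and -0.29 to 0.53 for Notum. Over all antagonists, comparisons and alternatives set at the start, 38 values turned sign, 4 came past the thresholds and 390 did neither.

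Over all genes, 525 were past the thresholds in OVX vs Sham, against 791 without a filter, 75 and 315 with limma at a pseudocount of 1 and 0.1, 1174 at 0.58, and 387 to 1064 with a library left out. In AS-IV vs OVX the 140 became 274, 13, 80 and 369 in the same order, and 141 to 219 with a library left out. In AS-IV vs Sham the 531 became 84 and 353 with limma, 1167 at 0.58, and 409 to 940. Genes with an adjusted p under 0.05, 0 in edgeR, numbered 790, 27 and 951 with DESeq2 in the order of the comparisons, and up to 21, 29 and 141 (from 0) with a library left out. In AS-IV vs Sham there were also 5 without a filter and 4 and 5 with limma at a pseudocount of 1 and 0.1. Smaller folds are given by a larger pseudocount, and a lower fold threshold or no filter admits more genes by construction; the cause of the other shifts was not tested.

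Dkk2, with 7 to 56 counts per library, and Notum, with 16 to 136, are limited by depth and by spread, so that small differences in them would have been missed. With 3 libraries a group, an exact permutation p cannot go below 0.1. A p above a threshold does not show that levels were equal.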
